A study of Mus musculus with 98 samples.

Results

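Immediate early genes are the first genes a T cell transcribes when its antigen receptor is engaged, and 10 of them are described here: Egr1, Egr2, Egr3, Nr4a1, Nr4a2, Nr4a3, Fos, Fosb, Ier2 and Arc. They were taken by gene symbol from 7 tables of RNA-seq read counts, which share 22984 symbols, and all 10 stood in every table. Their values are given as CPM, a gene's counts scaled to the same total in every library. In the fits below, all 10 passed the filter on low counts in each of the 5 models.

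Receptor signals reach these genes within minutes through calcium and the ERK kinase cascade, which act on factors already present, such as the serum response factor (SRF), CREB and NFAT, so that no new protein is needed first. EGR and NR4A proteins are transcription factors known in T cells for restraining activation and for roles in tolerance, and FOS and FOSB pair with JUN proteins to form AP-1. STAT5, the pair of proteins encoded by Stat5a and Stat5b, is the main transcription factor switched on by interleukin-2 (IL-2), a growth signal that follows antigen receptor stimulation in these cultures.

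The cells were CD4 T cells of C57BL/6 mice, taken from pooled spleen and peripheral lymph nodes and sorted as naive cells, except the Treg cells. The naive cells were stimulated with plate-bound antibody to CD3 and soluble antibody to CD28. Fresh Treg cells (set 6) were taken without any culture. Set 1 compares wild-type cells cultured for 3 days and rested overnight (3 libraries) with such cells that then received human IL-2 for 18 h (3 libraries), and every other group in the study has 2 libraries. Sets 2, 3 and 5 hold wild-type cells and cells of Stat5a/b flox/flox Cd4-Cre mice, called STAT5-deficient below, infected with retroviral vectors and cultured with human IL-2 for 18 h. The vectors were control, STAT5 and MYC in set 2, control, STAT5, AKT and CD25 in set 3, and 6 pairs of them in set 5: control with control, STAT5, MYC or AKT, and STAT5 with MYC or AKT. Set 4 holds the same genotypes after 3 days as Th0 (no cytokine or blocking antibody added), Th1 (IL-12 and anti-IL-4), Th2 (IL-4 and anti-IFN-gamma), Th17 (TGF-beta, IL-6 and antibodies to IL-4 and IFN-gamma) or iTreg cells (TGF-beta and antibodies to IL-4 and IFN-gamma). Set 6 holds wild-type FoxP3+ natural Treg cells before and after overnight culture (16 to 18 h) with IL-2. Set 7 holds 4-day Th0 cultures, with IL-2 as the treatment label, of wild-type, Stat5a-/- Stat5b+/- and Stat5a+/- Stat5b-/- cells. No label gives the ages of the mice. Cd4-Cre acts during thymic development, in the common precursors of CD4 and CD8 T cells, so the STAT5-deficient cells lacked the factor before they were sorted.

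The 88 libraries held 3.9 to 49.1 M counts (M, mega), with a median of 16.9 M. Stat5a stood at 1.05 to 19.2 CPM in STAT5-deficient cells without a STAT5 vector and at 69.3 to 99.6 CPM in wild type of the same sets, and in set 4 at 1.76 to 4.74 against 150 to 565 CPM. The labels do not say whether replicates were separate animals, so p-values measure the spread between these samples, part of which may be technical. In sets 2 to 6 the 2 replicates of a group mostly carried transcripts of opposite sexes (Xist or Ddx3y). Such pairs were not repeats of 1 mouse, and in them sex goes with replicate. Of set 3, wild-type STAT5-vector replicate 2 had 3.9 M counts and both kinds of transcript, with Stat5a at 138 CPM. In set 5, STAT5-deficient replicate 1 with 2 control vectors and replicate 1 with control and MYC vectors held 19.2 and 18.4 CPM of Stat5a, above the other libraries of that kind. The ribosomal precursor Rn45s took 20.9% of the counts of set 5 STAT5-deficient replicate 1 with STAT5 and AKT vectors and 1.05% of set 2 STAT5-deficient control replicate 2. Replicate 2 of both Th1 groups is labelled as Th2 in 1 field and as Th1 in its title and treatment, and was kept as Th1. CD4 T cell markers were present in every library. These are bulk samples, in which fewer cells of a type and less RNA per cell cannot be told apart.

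Promoters were at hand for 6 of the 10 genes (RefSeq, GRCm38.p6), and all 6 are shown, since letters of sites known for CREB, SRF and EGR proteins can be read in them. Each is the 250 bases before the transcription start, 5′ to 3′ on the gene's strand, with the letters of 3 motifs in capitals: TGACG (a cyclic AMP response element site, 1 copy of the pair in the full element, bound by CREB), GCGNGGGCG (an EGR site) and the CArG box bound by SRF, each searched on both strands, so that TGACG also appears as CGTCA. Egr2 has 5 starts in the table, and the third is shown, at chr10:67537619-67537868 on the plus strand. Nr4a1 is at chr15:101266596-101266845 (plus), Nr4a2 at chr2:57124004-57124253 (minus), Nr4a3 at chr4:48045055-48045304 (plus), Fos at chr12:85473640-85473889 (plus) and Fosb at chr7:19310046-19310295 (minus).
Egr2: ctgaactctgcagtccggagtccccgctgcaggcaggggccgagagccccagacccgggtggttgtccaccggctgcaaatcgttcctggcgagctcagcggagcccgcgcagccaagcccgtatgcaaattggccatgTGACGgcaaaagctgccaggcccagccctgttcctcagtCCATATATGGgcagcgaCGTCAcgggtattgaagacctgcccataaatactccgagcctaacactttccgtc
Nr4a1: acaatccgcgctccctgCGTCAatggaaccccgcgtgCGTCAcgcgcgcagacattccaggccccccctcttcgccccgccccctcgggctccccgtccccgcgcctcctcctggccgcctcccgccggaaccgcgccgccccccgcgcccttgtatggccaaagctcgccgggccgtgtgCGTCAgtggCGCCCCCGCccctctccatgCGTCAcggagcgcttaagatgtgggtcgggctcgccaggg
Nr4a2: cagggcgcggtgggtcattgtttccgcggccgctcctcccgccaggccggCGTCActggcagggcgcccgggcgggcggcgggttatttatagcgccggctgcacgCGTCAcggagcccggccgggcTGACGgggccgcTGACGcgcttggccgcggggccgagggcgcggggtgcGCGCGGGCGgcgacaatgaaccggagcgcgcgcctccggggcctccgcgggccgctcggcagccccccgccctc
Nr4a3: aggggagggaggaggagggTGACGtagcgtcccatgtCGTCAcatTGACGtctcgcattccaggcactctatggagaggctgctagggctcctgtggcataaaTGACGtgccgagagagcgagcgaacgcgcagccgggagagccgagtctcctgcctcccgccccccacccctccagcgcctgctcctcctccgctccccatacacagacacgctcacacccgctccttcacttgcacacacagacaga
Fos: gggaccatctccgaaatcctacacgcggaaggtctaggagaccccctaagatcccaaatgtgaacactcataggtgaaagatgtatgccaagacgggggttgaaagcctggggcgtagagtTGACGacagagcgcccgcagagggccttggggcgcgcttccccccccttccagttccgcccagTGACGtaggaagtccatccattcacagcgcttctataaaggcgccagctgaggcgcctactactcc
Fosb: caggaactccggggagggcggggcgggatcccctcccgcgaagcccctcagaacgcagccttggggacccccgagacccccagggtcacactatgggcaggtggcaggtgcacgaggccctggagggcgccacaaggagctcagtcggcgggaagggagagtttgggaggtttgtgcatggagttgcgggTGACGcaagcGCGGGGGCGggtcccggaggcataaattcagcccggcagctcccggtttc

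Nr4a1, Nr4a2 and Nr4a3 each held 4 TGACG sites in these windows, Egr2 and Fos 2, and Fosb 1. Of 32851 promoters of 300 bases in the table, 20.81% hold at least 1 of them. The EGR site lay 60 bases before the start of Nr4a1, 74 before that of Nr4a2 and 50 before that of Fosb, and 5.55% of promoters hold one. The CArG box of Egr2 lay 72 bases before its start, and 1.63% of promoters hold one. The full element TGACGTCA, the AP-1 site TGANTCA, the NR4A site AAAGGTCA and the STAT site TTCNNNGAA were searched for as well and their letters were not found in the windows of the 6 genes; 1.79%, 7.81%, 1.51% and 8.3% of promoters hold them. No 2 of the capital motifs overlapped. A match of letters is a description and not a bound site.

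The levels of these genes differed between sets, whose culture formats also differed. Egr1 ranged from 0.637 to 39.8 CPM in the IL-2-treated vector cultures of sets 2, 3 and 5, from 25.8 to 307 in the 3-day cultures of set 4 and from 223 to 293 in set 7. Nr4a1 ranged from 5.41 to 25.3, from 74.7 to 683 and from 377 to 763 CPM in the same order. Ier2, a small nuclear protein gene, was the steadiest, from 44.9 to 312 CPM over all 88 libraries. Fos was highest in Treg cells taken without culture, up to 530 CPM. The sets were prepared separately, so culture format and set cannot be told apart, and these differences between sets were not tested. Across 31 comparisons with a direction, Arc was called 18 times, Nr4a3 14, Nr4a2 13, Egr3 11, Nr4a1 9, Ier2 8, Egr2 7, Egr1 5 and Fos and Fosb 4 times each. The share of all genes called ran from 0% (CD25 vector) to 81.1% (IL-2 against rest) in these comparisons. Many of them share libraries, so the counts are a tally and were not tested against that background. A call is an adjusted p below 0.05 in edgeR's quasi-likelihood test with Benjamini-Hochberg adjustment over all genes of the model, and each fold change below is on the log2 scale with its standard error.

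**Figure D1:**
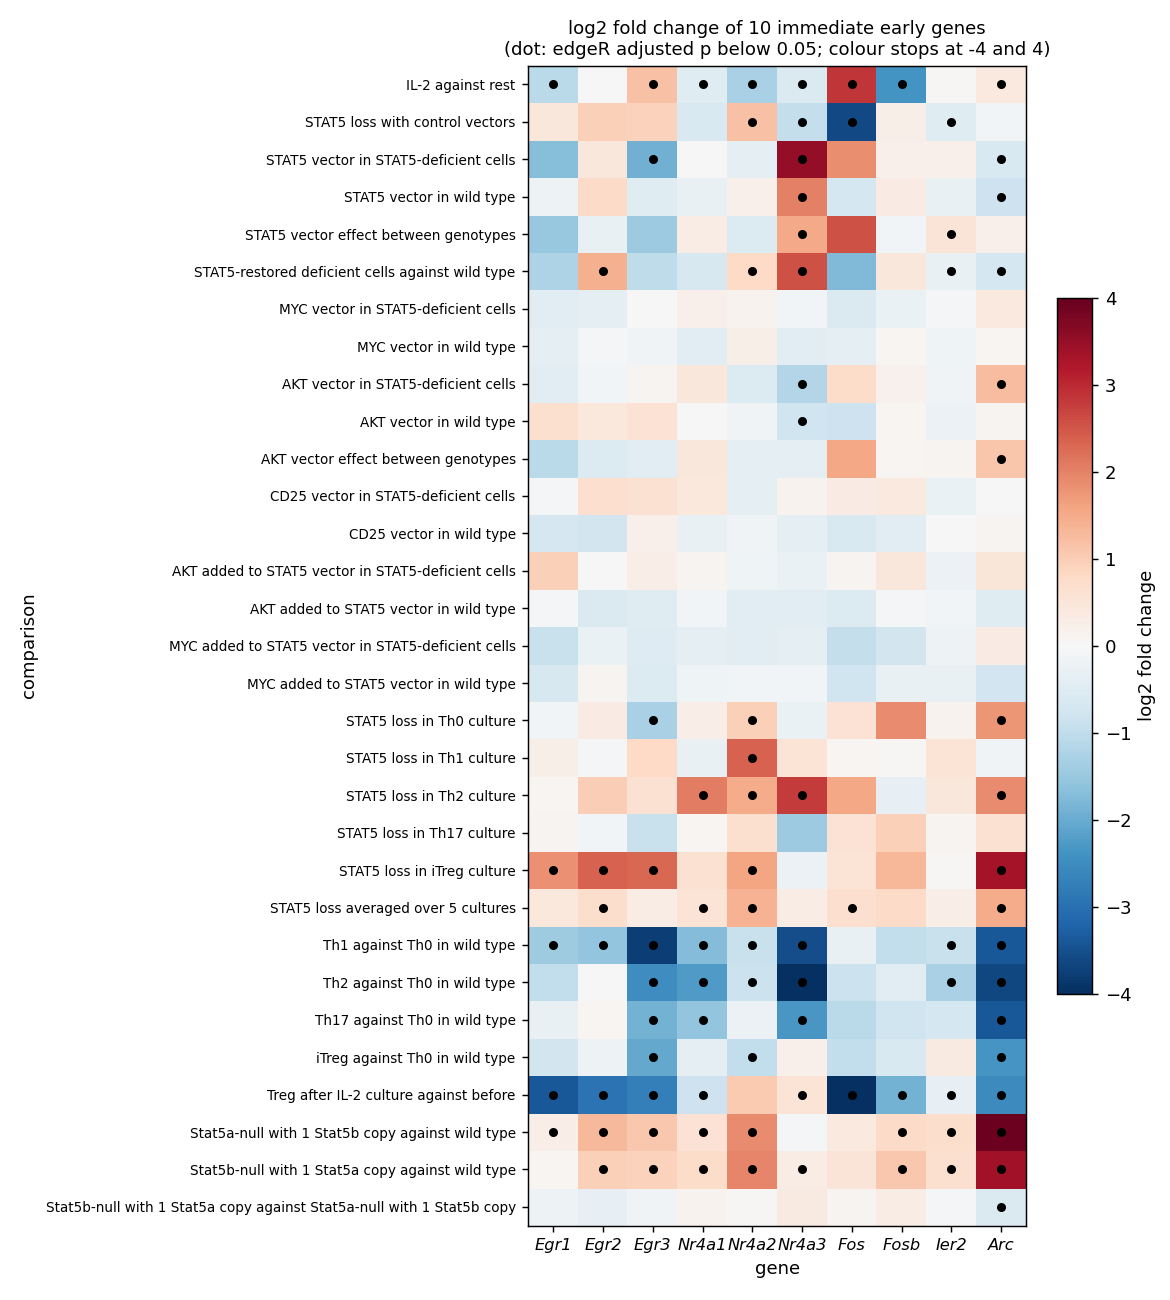
Log2 fold changes of the 10 genes (columns) in 31 comparisons (rows), red for higher and blue for lower in the first-named condition, with a dot where the adjusted p is below 0.05. Arc carries a dot in 18 rows, and 14 dots belong to Nr4a3, 7 higher and 7 lower. The share of all genes called differs between rows, from 0% to 81.1%.

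After rested cells were given IL-2, the family members went different ways. The IL-2 libraries were taken 18 h later than the rested ones, with no culture without IL-2 at that time. Time and IL-2 thus cannot be told apart in this set. Fos and Egr3 were higher after IL-2, and Fosb, Nr4a2, Egr1, Nr4a3 and Nr4a1 were lower. The test called 8 of 10 genes in a comparison in which 81.1% of all genes were called, so that the count itself is close to the background. Fos, the AP-1 subunit, read 0.551, 1.03 and 0.847 CPM at rest and 4.52, 5.57 and 5.73 CPM after IL-2. The groups did not overlap, and Fos rose by 2.86 ± 0.25 (adjusted p = 5.7e-09). Its paralog Fosb went the other way, from 3.00, 1.99 and 2.23 to 0.348, 0.201 and 0.590 CPM, a log2 change of -2.39 ± 0.36 (adjusted p = 6.5e-06).

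Among the EGR genes, the zinc finger factor Egr1 read 7.60, 10.9 and 9.01 CPM at rest and 3.55, 2.62 and 5.14 with IL-2. Egr3 read 2.88, 4.38 and 3.85 CPM at rest and 7.44, 4.96 and 9.57 with IL-2. Both pairs of groups were apart, in opposite directions: Egr1 changed by -1.07 ± 0.20 (adjusted p = 9.1e-05) and Egr3 by 1.17 ± 0.22 (adjusted p = 8.8e-05). Egr2 lay between 0.797 and 2.32 CPM, its groups overlapped and it was not called (adjusted p = 0.96).

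Of the orphan nuclear receptors, Nr4a2 read 12.4, 9.59 and 7.77 CPM at rest and 3.27, 4.03 and 3.62 with IL-2. Its change was the largest of the 3 receptors, -1.30 ± 0.18 (adjusted p = 2.0e-06). Nr4a1 read 23.4, 27.7 and 30.9 against 16.3, 14.4 and 20.6 CPM, and Nr4a3 read 10.1, 9.26 and 10.4 against 5.91, 5.43 and 6.58 CPM. All 3 receptors were lower in every IL-2 library than in every rested one, with changes of -0.49 ± 0.12 for Nr4a1 (adjusted p = 0.0012) and -0.56 ± 0.13 for Nr4a3 (adjusted p = 0.00081). Arc, which encodes a capsid-forming protein best known from synapses, was called at 0.39 ± 0.17 (adjusted p = 0.045), but its groups overlapped. That call was lost without IL-2 replicate 1 or 2 or rested replicate 2 or 3, with adjusted p from 0.073 to 0.15, and with DESeq2 (adjusted p = 0.11) or RLE scaling (adjusted p = 0.051). Ier2 differed by 0.05 ± 0.07 and was not called (adjusted p = 0.49).

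Other genes of the pathway moved in this comparison as follows. Of 19 other immediate early genes, 18 were tested, 7 rose and 7 fell, with a median change of -0.11 against -0.01 for all genes. The antiproliferative gene Btg2 changed by -2.38 and Klf4 by -1.48, while the AP-1 partners Maff and Jun changed by 1.65 and 1.40. Of 8 feedback genes of the ERK pathway 7 were tested, 5 rose and 2 fell, with a median of 1.38, led by the ERK inhibitor Spred1 (2.81) and the ERK phosphatase Dusp6 (2.47). Of 17 EGR corepressors and genes known as EGR or NR4A targets in T cells, 16 were tested, 6 rose and 9 fell, with Socs1 at 3.65 and Lag3 at -2.85. Summed myeloid and antigen-presenting cell markers (8 genes) stood at 82.7 to 97.0 CPM at rest, with Itgax and Emr1 at 0, and at 3.89 to 5.52 CPM with IL-2, with Lyz2 at 0. All 4 that were tested fell, as did 3 of 3 tested B cell markers, from a sum of 19.4 to 21.5 to one of 3.25 to 3.49 CPM. The part of those cells in the changes above was not tested. Rested replicates 2 and 3 carried the male transcript Ddx3y and the other 4 libraries of the set Xist. Against rested replicate 1 alone, all 3 IL-2 libraries were higher for Fos and Egr3 and lower for Fosb, Egr1 and the NR4A genes.

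Without STAT5, cells with control vectors held more Nr4a2 and less Fos, Ier2 and, in sets 2 and 3, Nr4a3. The comparison averages the differences within the 3 sets, with 6 libraries per genotype, and called 4 of the 10 genes where 59.8% of all genes were called. Nr4a2 ran from 3.60 to 6.21 CPM in wild type (median 4.58) and from 8.91 to 16.8 CPM in STAT5-deficient cells (median 11.7). No library of one genotype reached the range of the other. The change was 1.16 ± 0.25 (adjusted p = 0.00011), and within sets 2, 3 and 5 it was 1.11, 1.21 and 1.16.

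Fos ran from 3.40 to 81.7 CPM in wild type (median 18.3) and from 0.111 to 37.3 CPM without STAT5 (median 0.974). The ranges overlapped, with both genotypes at their highest in replicate 2 of set 5. The fitted change was -3.62 ± 0.94 (adjusted p = 0.0011), with -2.97, -6.26 and -1.64 within sets 2, 3 and 5. By set, edgeR's test called Fos in set 3 (adjusted p = 0.0061) and not in sets 2 and 5 (adjusted p = 0.169 and 0.315). In set 3 the deficient control libraries held only 11 and 2 counts of Fos. Ier2 ran from 99.8 to 130 CPM (median 117) against 81.4 to 113 CPM (median 96.9), an overlap, and changed by -0.50 ± 0.11 (adjusted p = 0.00017), by -0.42, -0.51 and -0.55 within the sets. Nr4a3 in set 2 was 15.5 and 14.5 CPM in wild type and 5.86 and 5.07 without STAT5, and in set 3 it was 13.4 and 16.5 against 7.17 and 5.99 CPM. In set 5 it was 4.37 and 4.40 against 6.99 and 5.06 CPM, so that the wild-type cells with 2 control vectors were the lower ones. The averaged change of -0.97 ± 0.19 (adjusted p = 3.4e-05) thus holds within sets 2 and 3 (-1.62 and -1.43) and not within set 5 (0.15).

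Egr1, Egr2, Egr3, Nr4a1, Fosb and Arc were not called. Egr3 ran from 0.702 to 2.07 CPM in wild type and from 1.92 to 5.48 CPM without STAT5 (0.92 ± 0.44, adjusted p = 0.069), and Egr2 from 0.279 to 1.99 against 0.349 to 7.99 CPM. Among 18 other immediate early genes 4 rose and 9 fell (median -0.52 against 0.05 for all genes), with Ier3 at -3.24, Atf3 at -2.47 and Btg2 at 2.60. Of 14 genes of SRF, its cofactors, CREB, MEF2 and NFAT, 8 rose and 1 fell. Of 17 corepressors and targets 8 rose and 6 fell, led by Tox2 (9.47), a nuclear factor linked to T cell exhaustion, and Socs1 (-3.20). Summed myeloid markers were 11.1 to 40.7 CPM in wild type and 71.8 to 262 CPM without STAT5, with Lyz2 at 0 in the latter and 4 of 7 tested markers higher. B cell markers summed to 1.52 to 4.58 and 5.24 to 19.5 CPM, 4 of 5 of them higher. Their part in these differences was not tested.

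A STAT5 vector raised Nr4a3 in both genotypes, and in sets 2 and 3 by more where the endogenous genes were deleted. In STAT5-deficient cells with control vectors Nr4a3 ran from 5.06 to 7.17 CPM (median 5.93), and with the STAT5 vector from 39.1 to 99.2 CPM (median 59.9). In wild type it ran from 4.37 to 16.5 CPM (median 14.0) and from 23.8 to 53.2 CPM (median 38.5). The ranges of both genotypes were apart. The rise was 3.50 ± 0.19 in deficient cells (adjusted p = 5.7e-18; 3.48, 3.89 and 3.15 within sets 2, 3 and 5) and 2.0 ± 0.17 in wild type (adjusted p = 5.3e-11; 1.66, 1.39 and 2.97). The difference between these rises was itself tested and was 1.50 ± 0.25 (adjusted p = 4.3e-06). It stood mainly in sets 2 and 3, since in set 5 the rises were 3.15 and 2.97. The vector RNA differed too: Stat5a reached 603 to 1169 CPM in deficient cells and 138 to 608 CPM in wild type with the vector.

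**Figure D2:**
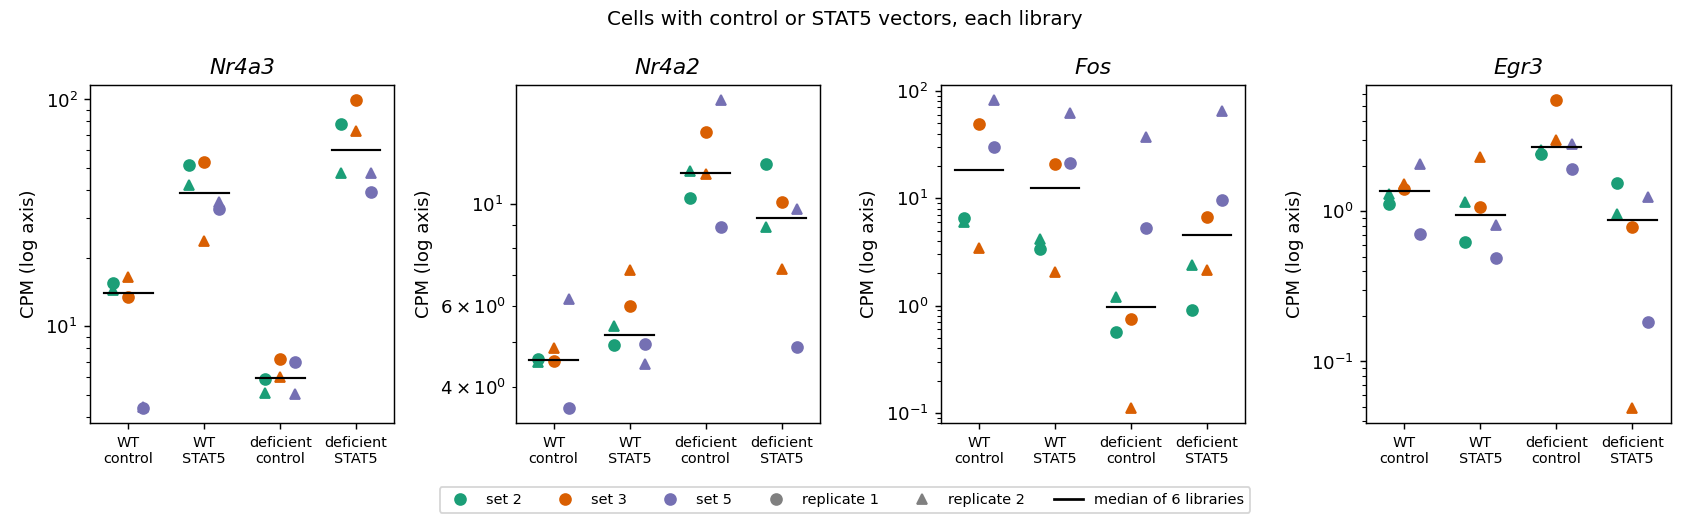
CPM (log axis) of Nr4a3, Nr4a2, Fos and Egr3 in each library with control or STAT5 vectors, by genotype, coloured by set, with circles for replicate 1, triangles for replicate 2 and a line at the median of 6 libraries. Nr4a3 lies at 39.1 CPM or more in all 6 deficient libraries with the STAT5 vector and at 7.17 CPM or less in the 6 without it, and Fos spreads by replicate in set 5.

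The STAT5 vector called 3 of 10 genes in deficient cells (61.7% of all genes) and 2 of 10 in wild type (17.3%). In deficient cells Egr3 fell from 1.92 to 5.48 CPM (median 2.68) to 0.0490 to 1.54 CPM (median 0.874). The ranges did not overlap, and the change was -1.93 ± 0.46 (adjusted p = 0.00042), being -1.05, -3.15 and -1.60 within sets 2, 3 and 5. In wild type Egr3 ran from 0.488 to 2.31 CPM with the vector, within the wild-type control range or close to it, and was not called (-0.49 ± 0.47, adjusted p = 0.59). The difference between genotypes for Egr3 was -1.45 ± 0.66 and was not called (adjusted p = 0.073).

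Arc was the other gene called in both genotypes. It ran from 3.19 to 5.99 CPM in deficient cells with control vectors and from 1.25 to 3.42 CPM with STAT5, and from 2.02 to 6.41 CPM and 1.34 to 3.25 CPM in wild type. Both pairs of ranges overlapped, and the changes were -0.61 ± 0.19 (adjusted p = 0.0047) and -0.82 ± 0.19 (adjusted p = 0.0020). In deficient cells the fall stood mainly in set 5, at -1.34 against -0.41 in set 2 and -0.08 in set 3. Nr4a2, which had been higher without STAT5, was 4.89 to 12.2 CPM with the vector (median 9.33) and was not called against the control vectors (-0.35 ± 0.24, adjusted p = 0.20). Fos was 0.907 to 64.3 CPM with the vector (median 4.54) and was not called either (1.85 ± 1.07, adjusted p = 0.14).

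Fos and Egr1 in deficient cells depended on whether libraries were compared by replicate number. Against the control library of the same number, Fos went from 0.564 to 0.907 and from 1.203 to 2.38 CPM with the STAT5 vector in set 2, from 0.745 to 6.70 and from 0.111 to 2.16 in set 3, and from 5.24 to 9.59 and from 37.3 to 64.3 in set 5. It was higher in 6 of 6 such pairs, and a fit with the replicate number as a block within each set called it (1.89, adjusted p = 8.9e-05). Egr1 was lower in 6 of 6 pairs, was not called without the block (-1.71, adjusted p = 0.053) and was called with it (-2.05, adjusted p = 0.00012). The block also called the difference of the vector effect between genotypes for Fos (2.64, adjusted p = 1.6e-05), Egr1 (-1.84, adjusted p = 0.012), Egr3 (-1.50, adjusted p = 0.014) and Nr4a2 (-0.58, adjusted p = 0.049). By a check over all genes, given below, same-numbered libraries of sets 3 and 5 were not paired. The blocked calls thus stand beside the main fit and do not replace it.

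The difference between genotypes called 2 of 10 genes (45.4% of all genes), Nr4a3 and Ier2. Ier2 ran from 83.6 to 114 CPM in deficient cells with the STAT5 vector and from 80.2 to 111 CPM in wild type with it. Its changes, 0.21 ± 0.11 and -0.30 ± 0.11, were each not called (adjusted p = 0.093 and 0.052), while their difference of 0.51 ± 0.15 was (adjusted p = 0.0060). With no filter on low counts that difference was 0.38 and not called (adjusted p = 0.064).

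Deficient cells given STAT5 still held more Nr4a2 than wild type and far more Nr4a3. Set against wild type with control vectors, 5 of 10 genes were called (38.2% of all genes). Nr4a3 stood above wild type by 2.54 ± 0.17 (adjusted p = 2.1e-14), in ranges of 39.1 to 99.2 and 4.37 to 16.5 CPM. Nr4a2, at 4.89 to 12.2 against 3.60 to 6.21 CPM, remained higher by 0.81 ± 0.24 (adjusted p = 0.0077). Egr2, at 1.24 to 4.17 against 0.279 to 1.99 CPM, was higher by 1.42 ± 0.49 (adjusted p = 0.019). Arc was lower by 0.72 on the log2 scale (-0.72 ± 0.18, adjusted p = 0.0017) and Ier2 by 0.28 (-0.28 ± 0.11, adjusted p = 0.036). The Arc change stood mainly in set 5, at -1.87 against 0.0037 in set 2 and -0.28 in set 3. The ranges of Nr4a2, Egr2, Arc and Ier2 overlapped. Without set 5 STAT5-deficient replicate 2 with control and STAT5 vectors, Nr4a2 (0.61, adjusted p = 0.055) and Egr2 (1.05, adjusted p = 0.10) were no longer called. Egr2 also lost its call without set 2 wild-type control replicate 1 or set 5 wild-type replicate 1 with 2 control vectors (adjusted p = 0.057 and 0.071). Ier2 lost it with no filter on low counts (-0.22, adjusted p = 0.16) and without any 1 of 8 libraries, with adjusted p from 0.056 to 0.11: both set 2 deficient STAT5 replicates, both set 3 ones, set 5 deficient STAT5 replicate 1, and the wild-type controls set 2 replicate 2, set 3 replicate 1 and set 5 replicate 2.

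Around these genes, the STAT5 vector in deficient cells raised 8 and lowered 4 of 18 tested immediate early genes outside the family (median 0.21 against -0.07 for all genes), with Atf3 at 2.70, Ier3 at 2.45, Jun at 2.32 and Btg2 at -2.92. Of the 17 corepressors and targets 4 rose and 10 fell (median -1.34), Tox2 by -3.95 and the cell death gene Bcl2l11 by -2.53, with the cytokine signal inhibitors Socs3 and Socs1 at 3.41 and 3.19. Of the ERK feedback genes 5 rose and 1 fell of 8. Of 11 receptor-induced genes tested 4 rose and 5 fell, with Irf4 at 3.76, Xcl1 at -3.20 and the inhibitory receptor gene Pdcd1 at -3.03. Summed myeloid markers were 30.8 to 150 CPM with the vector, and 4 of 7 tested ones fell, as did 4 of 5 B cell markers. Their part was not tested.

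AKT, a kinase of the PI3K pathway, moved Arc and Nr4a3 in deficient cells. In set 3 Arc was 3.52 and 4.38 CPM with the control vector and 8.98 and 11.7 with AKT, and in set 5 it was 4.02 and 5.99 with 2 control vectors and 11.6 and 8.93 with control and AKT vectors. All 4 AKT libraries lay above all 4 controls, a rise of 1.25 ± 0.22 (adjusted p = 3.8e-05). Wild-type Arc was 5.15 and 5.09 CPM with AKT against 3.33 and 4.38 in set 3, and 5.38 and 6.05 against 6.41 and 5.35 in set 5, and was not called (0.12 ± 0.21, adjusted p = 0.89). The AKT effect on Arc differed between genotypes by 1.12 ± 0.31 (adjusted p = 0.014), the 1 call among 10 genes (10.6% of all genes).

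Nr4a3 was lower with AKT. In deficient cells it was 7.17 and 5.99 CPM against 3.87 and 3.92 with AKT in set 3, and 6.99 and 5.06 against 2.93 and 1.40 in set 5. In wild type it was 13.4 and 16.5 against 10.4 and 9.40 in set 3, and 4.37 and 4.40 against 1.61 and 3.07 in set 5. Within each set the groups were apart. The falls were -1.17 ± 0.27 (adjusted p = 0.0011) and -0.80 ± 0.23 (adjusted p = 0.031), in comparisons that called 2 of 10 genes (28.3% of all genes) and 1 of 10 (5.04%). The deficient call was lost without set 5 control and AKT replicate 2 (-0.84, adjusted p = 0.053). The wild-type call was lost without any 1 of 6 libraries, namely both set 3 AKT replicates, set 3 control replicate 2, set 5 control and AKT replicate 1 and both set 5 replicates with 2 control vectors, with adjusted p from 0.054 to 0.17.

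MYC called none of the 10 genes in deficient cells (12.5% of all genes) or wild type (0.795%), and CD25, the IL-2 receptor alpha chain, none in either genotype (0% of all genes). Adding AKT to the STAT5 vector called none (0.379% of all genes in deficient cells, 0.489% in wild type), and adding MYC to it called none (6.02% and 4.47%). In these comparisons DESeq2 also called 0 of the 10 genes, and edgeR's unadjusted p was below 0.05 for 0 genes, except Arc when MYC was added to STAT5 in wild type (-0.78 ± 0.32, adjusted p = 0.18). Nr4a3 in these cells stood at 32.03 and 27.7 CPM with STAT5 and MYC in deficient cells and 28.6 and 36.0 in wild type, and at 31.3 and 35.9 CPM and 23.7 and 26.2 CPM with STAT5 and AKT. With the STAT5 vector and a control vector they were 39.1 and 47.2 CPM in deficient cells and 33.0 and 35.2 in wild type. The difference for MYC added to STAT5 was -0.40 ± 0.27 in deficient cells (adjusted p = 0.48), and that for AKT was -0.27 ± 0.28 (adjusted p = 0.80).

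The 2 replicates of a group stood apart for Fos, Fosb and the EGR genes in set 5, and for Fos, Fosb, Ier2 and Egr1 in set 3. In set 5, Fos, Fosb, Egr1, Egr2 and Egr3 were higher in replicate 2 than in replicate 1 in 12 of 12 groups, and Nr4a1, Nr4a2 and Ier2 in 11 of 12. Fosb ran from 0.735 to 9.47 CPM in replicate 1 and from 43.2 to 123 CPM in replicate 2, without overlap over all vectors and both genotypes. Fos ran from 1.90 to 30.1 and from 31.3 to 91.4 CPM, and Egr1 from 0.808 to 11.7 and from 6.32 to 39.8 CPM. Nr4a3 did not share the pattern: replicate 2 was higher in 8 of 12 groups, with a median log2 ratio of 0.10 against 4.09 for Fosb. In set 3 the order was the other way round, with replicate 2 higher in 0 of 8 groups for Fos, Fosb and Ier2 and in 1 of 8 for Egr1. Egr2 and Egr3 did not split there, with replicate 2 higher in 4 of 8 groups each. There Fos ran from 0.578 to 49.0 CPM in replicate 1 and from 0.111 to 4.14 CPM in replicate 2. What set the replicates apart was not tested.

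With the replicate number as a block within each set, further genes were called in the vector cultures. The share of all genes called in that fit is not given here, so the added calls are not set against a background. On STAT5 loss with control vectors these were Egr2 (0.83, adjusted p = 0.043), Egr3 (0.90, adjusted p = 0.019) and Nr4a1 (-0.59, adjusted p = 0.0066). With the STAT5 vector Ier2 was added in deficient cells (0.21, adjusted p = 0.024), and Ier2 (-0.30, adjusted p = 0.0065) and Fos (-0.75, adjusted p = 0.033) in wild type. In deficient cells given STAT5 against wild type, Fos (-1.79, adjusted p = 1.5e-06), Egr1 (-1.30, adjusted p = 0.016), Egr3 (-1.09, adjusted p = 0.013) and Nr4a1 (-0.60, adjusted p = 0.0079) were added. With AKT, Nr4a2 was added in deficient cells (-0.59, adjusted p = 0.027) and Fos in wild type (-1.01, adjusted p = 0.024).

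**Figure D3:**
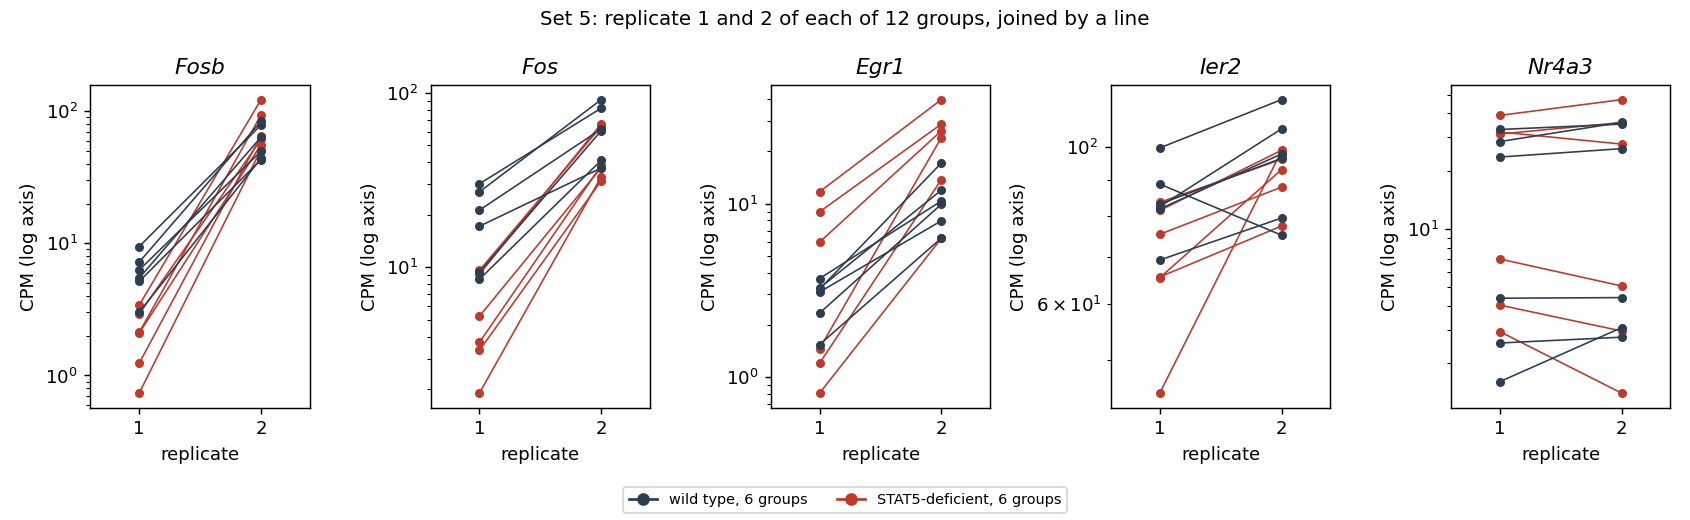
CPM (log axis) of 5 genes in replicate 1 and replicate 2 of the 12 groups of set 5, each group joined by a line, wild type in dark and STAT5-deficient in red. Lines rise in 12 of 12 groups for Fosb, Fos and Egr1 and in 11 of 12 for Ier2, while Nr4a3 separates by vector and rises in 8 of 12.

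In the polarising cultures of set 4, Nr4a2 was higher without STAT5 in every condition, and iTreg cultures showed the widest change, with the EGR genes and Arc up. In that set the replicate number paired the libraries across groups. The standard errors and adjusted p given for set 4 are nevertheless those of the fit without a block. Values of a fit with the number as a block are added where they change a call. Nr4a2 was 41.4 and 31.1 CPM in wild-type Th0 cells and 68.2 and 76.8 without STAT5, and in Th1 cells it was 17.5 and 19.0 against 84.6 and 104. In Th2 cells it was 14.5 and 24.6 against 46.5 and 61.8, in Th17 cells 33.4 and 25.3 against 47.7 and 47.5, and in iTreg cells 17.5 and 17.2 against 70.8 and 45.2 CPM. The genotypes did not overlap in 5 of 5 cultures. The rise was 2.36 ± 0.25 in Th1 (adjusted p = 4.2e-05), 1.57 ± 0.25 in iTreg (adjusted p = 0.00029), 1.47 ± 0.25 in Th2 (adjusted p = 0.0014) and 0.95 ± 0.24 in Th0 cells (adjusted p = 0.025). The Th0 call depended on single libraries of that culture. In Th17 cells the rise was 0.64 ± 0.24 and not called (adjusted p = 0.18). Averaged over the 5 cultures it was 1.40 ± 0.11 (adjusted p = 2.2e-07), and the size differed between cultures (adjusted p = 0.015), although without either wild-type Th1 replicate that p was 0.051 or 0.054.

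Arc was 11.2 and 19.97 CPM in wild-type Th0 cells and 41.8 and 67.5 without STAT5. In iTreg cells it was 3.77 and 1.79 against 44.8 and 18.8 CPM, and in Th2 cells 1.05 and 1.33 against 5.74 and 3.31 CPM. In Th1 and Th17 cells it lay between 0.809 and 2.64 CPM in both genotypes. The rises were 1.76 ± 0.46 (adjusted p = 0.029), 3.33 ± 0.50 (adjusted p = 0.00022) and 1.90 ± 0.56 (adjusted p = 0.038). The call in Th0 cells depended on single libraries of that culture, as given with the counts by culture below. The STAT5 effect on Arc differed between cultures (adjusted p = 0.027). That last call was lost without deficient iTreg replicate 1, deficient Th1 replicate 1, deficient Th17 replicate 2, wild-type iTreg replicate 2 or wild-type Th1 replicate 1 (adjusted p from 0.053 to 0.089). The Th2 rise was lost without any 1 of its 4 libraries (adjusted p from 0.062 to 0.24), with RLE scaling (adjusted p = 0.051) and with only the compared libraries in the fit (adjusted p = 0.079).

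The EGR genes rose in iTreg cells without STAT5. Egr1 was 48.6 and 61.6 CPM in wild type and 307 and 136 CPM without STAT5, Egr2 was 31.9 and 27.8 against 224 and 122, and Egr3 was 26.1 and 34.4 against 230 and 102. The genotypes were apart for all 3, and replicate 1 of the deficient cells was the higher one. The changes were 1.84 ± 0.41 (adjusted p = 0.0046), 2.36 ± 0.34 (adjusted p = 0.00015) and 2.29 ± 0.37 (adjusted p = 0.00037). The Egr1 call was lost without deficient replicate 1 (1.09, adjusted p = 0.12) or wild-type replicate 1 (1.69, adjusted p = 0.054). In Th0 cells Egr3 went the other way, at 125 and 144 CPM in wild type and 54.6 and 57.5 without STAT5 (-1.31 ± 0.36, adjusted p = 0.037). That call too depended on single Th0 libraries. The STAT5 effect differed between cultures for Egr3 (adjusted p = 0.0010) and Egr2 (adjusted p = 0.0066).

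Nr4a1 and Nr4a3 rose in Th2 cells. Nr4a1 was 74.7 and 91.9 CPM in wild type and 461 and 241 without STAT5 (2.06 ± 0.42, adjusted p = 0.0046), and Nr4a3 was 4.01 and 7.91 against 44.0 and 37.9 CPM (2.80 ± 0.48, adjusted p = 0.0017). Both pairs were apart. Without deficient Th2 replicate 1 the Nr4a1 change was 1.53 (adjusted p = 0.057). In Th17 cells Nr4a3 was lower, at 17.1 and 24.1 CPM in wild type and 9.64 and 6.01 without STAT5, and was not called (-1.45 ± 0.46, adjusted p = 0.092), but it was with the replicate block (-1.49, adjusted p = 0.043). Its STAT5 effect differed between cultures (adjusted p = 0.0034), as did that of Nr4a1 (adjusted p = 0.049). The Nr4a1 value passed 0.05 without any 1 of 14 of the 20 libraries, by the most without deficient Th2 replicate 1 (adjusted p = 0.23).

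By culture, STAT5 loss called 3 of 10 genes in Th0 cells (6.49% of all genes), 1 in Th1 (11.7%), 4 in Th2 (11.5%), 0 in Th17 (4.88%) and 5 in iTreg cells (22.6%). In Th17 cells the unadjusted p of edgeR was below 0.05 for 3 genes (Egr3, Nr4a2 and Nr4a3), and DESeq2 called 1, Nr4a3. Leaving out any 1 of the 4 Th0 libraries left 0 or 1 of the 3 Th0 calls. In the average of the cultures 5 genes were called (27.1% of all genes), all higher, a direction taken by 15.1% of all genes: Nr4a2, Arc (1.49 ± 0.24, adjusted p = 0.00024), Egr2 (0.71 ± 0.15, adjusted p = 0.0021), Nr4a1 (0.54 ± 0.18, adjusted p = 0.035) and Fos (0.66 ± 0.23, adjusted p = 0.039). Nr4a1 and Fos rested on single libraries, with the call lost without any 1 of 13 and 15 of the 20 libraries and adjusted p up to 0.11 and 0.12, and Fos also with RLE scaling (adjusted p = 0.060). Between cultures the effect differed for 6 of 10 genes (18.1% of all genes). The replicate block added Fosb (1.91, adjusted p = 0.048) in Th0 cells, Egr2 (0.98, adjusted p = 0.040) and Fos (1.57, adjusted p = 0.029) in Th2 cells, and Fosb (0.76, adjusted p = 0.048) and Ier2 (0.26, adjusted p = 0.048) to the average. Summed myeloid markers were 23.0 to 149 CPM in wild type and 34.7 to 215 CPM without STAT5, 2 of 7 tested ones higher on average, and their part was not tested.

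**Figure D4:**
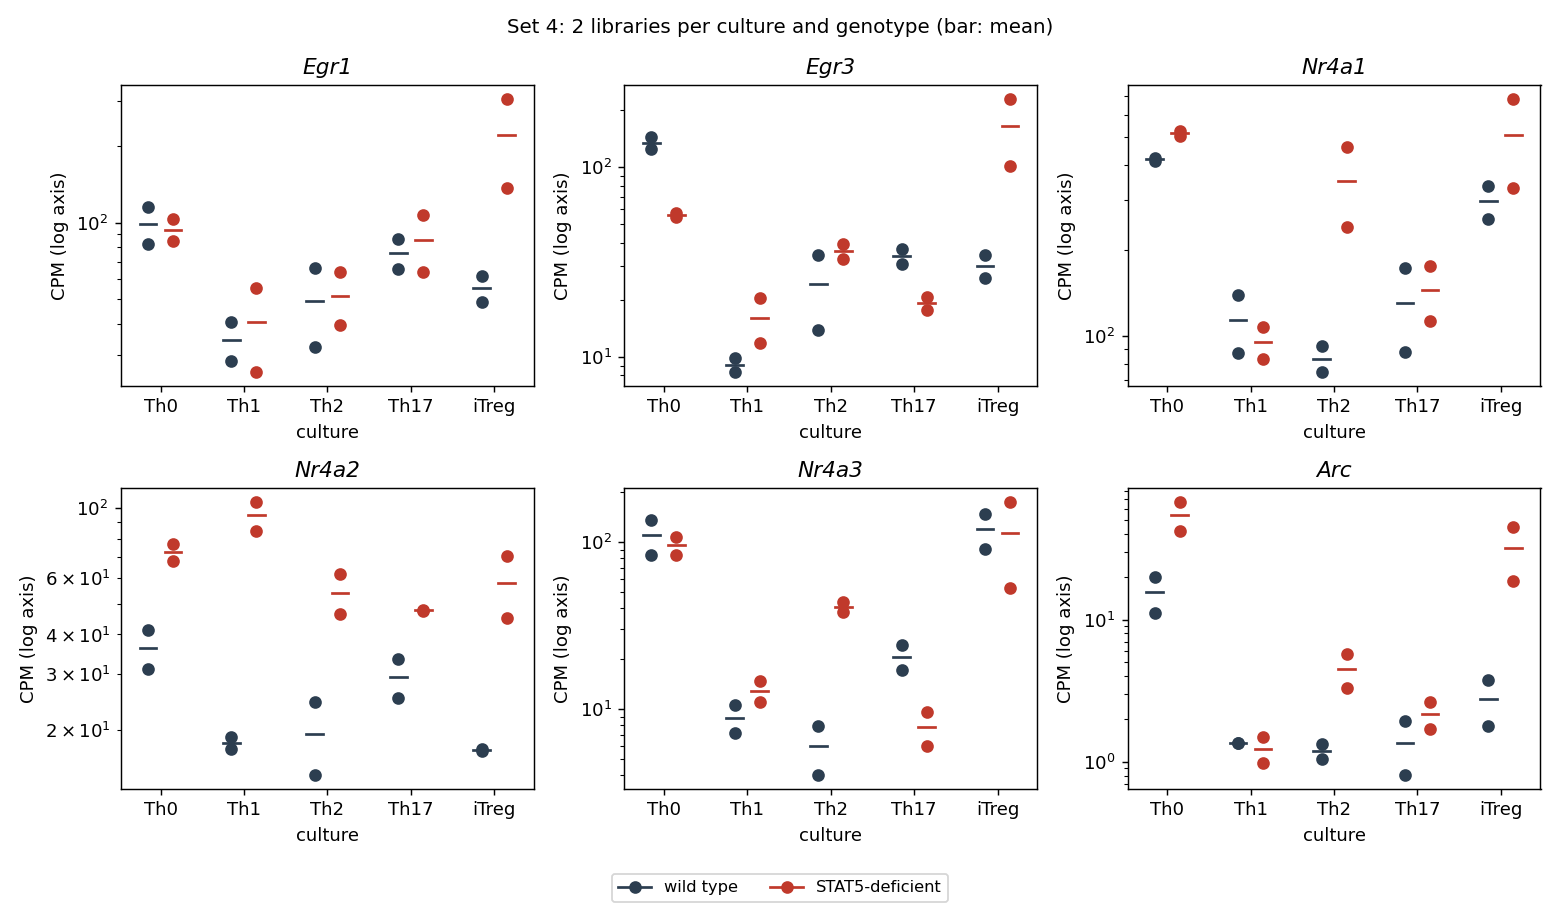
CPM (log axis) of Egr1, Egr3, Nr4a1, Nr4a2, Nr4a3 and Arc in 5 cultures, wild type in dark and STAT5-deficient in red, with 2 libraries per group as points and a bar at the mean. Nr4a2 lies higher without STAT5 in all 5 cultures, and Egr1, Egr3 and Arc are apart in iTreg cells.

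In iTreg cells without STAT5, 10 of 17 corepressors and targets rose and 4 fell (median 1.46 against 0.03 for all genes), with Nrgn at 6.31, Tox2 at 6.28, Bcl2l11 at 4.13 and Socs3 at -3.36. The median of the 10 genes described here was 1.45. Of the ERK feedback genes 3 of 8 rose, Spry2 by 3.11 and Dusp6 by 3.04. Of the 14 upstream factors 2 rose and 1 fell, with Nfatc1, an NFAT gene, at 2.80. Of the 19 other immediate early genes 1 rose and 5 fell, with Ier3 at -2.93, Atf3 at -2.46, Myc at -1.46 and Btg2 at 1.54.

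Within wild type, Egr3 and Arc were lower in each of the 4 other cultures than in Th0 cells. Egr3 was 125 and 144 CPM there, against 9.86 and 8.32 in Th1, 13.8 and 34.5 in Th2, 30.7 and 37.2 in Th17 and 26.1 and 34.4 in iTreg cells. Each other culture was apart from Th0, by -3.77 ± 0.40 (adjusted p = 1.1e-05), -2.48 ± 0.37 (adjusted p = 0.00023), -1.90 ± 0.36 (adjusted p = 0.0036) and -2.06 ± 0.37 (adjusted p = 0.0018). The ranges of Th2, Th17 and iTreg cells overlapped with each other. Arc, at 11.2 and 19.97 CPM in Th0 cells, fell by 3.40 in Th1, 3.64 in Th2, 3.41 in Th17 and 2.37 in iTreg cells. Nr4a3 was 135 and 84.2 CPM in Th0, 148 and 90.9 in iTreg, 17.1 and 24.1 in Th17, 7.21 and 10.5 in Th1 and 4.01 and 7.91 in Th2 cells. Its change was -4.19 ± 0.50 in Th2 (adjusted p = 3.3e-05), -3.54 ± 0.48 in Th1 (adjusted p = 0.00012) and -2.33 ± 0.45 in Th17 cells (adjusted p = 0.0040), while iTreg cells were not called (0.21 ± 0.43, adjusted p = 0.87). Nr4a1, at 413 and 423 CPM in Th0 cells, was 140 and 87.2 in Th1, 74.7 and 91.9 in Th2, 174 and 87.9 in Th17 and 337 and 259 in iTreg cells. Its change against Th0 was -1.75 ± 0.41 in Th1, -2.27 ± 0.42 in Th2 and -1.59 ± 0.41 in Th17 cells (adjusted p = 0.0063, 0.0011 and 0.024) and was not called in iTreg cells (adjusted p = 0.69).

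Against Th0, 8 of 10 genes were called in Th1 (22.2% of all genes), 6 in Th2 (23.7%), 4 in Th17 (7.41%) and 3 in iTreg cells (7.95%). All these calls were lower, a direction taken by 11.4%, 13.4%, 3.04% and 2.74% of all genes. These comparisons share the 2 Th0 libraries. Fos and Fosb, at 2.95 to 13.6 and 0.578 to 3.08 CPM over the 5 wild-type cultures, were in none of them. Without wild-type Th1 replicate 2 the Th1 calls went to 4, with Egr1, Nr4a1, Nr4a2 and Ier2 lost (adjusted p = 0.063, 0.076, 0.11 and 0.13), and without wild-type iTreg replicate 2 those of iTreg cells went to 1, with Nr4a2 and Arc lost (adjusted p = 0.15 and 0.095). Without Th0 replicate 1, Nr4a2 was lost in Th1, Th2 and iTreg cells (adjusted p = 0.19, 0.23 and 0.19) and Nr4a1 in Th17 cells (adjusted p = 0.085). Without Th0 replicate 2, Egr1 and Ier2 were lost in Th1 (adjusted p = 0.11 and 0.14), Nr4a1 in Th17 (adjusted p = 0.080) and Arc in iTreg cells (adjusted p = 0.065). Of the other libraries, Th1 replicate 1 decided Egr1 and Nr4a2, Th2 replicate 1 and iTreg replicate 1 decided Nr4a2, and Th17 replicate 2 decided Nr4a1 (adjusted p from 0.11 to 0.25).

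Most of the 10 genes fell in natural Treg cells during overnight culture with IL-2, Fos and Egr1 by the most. The test called 9 of 10 genes (31.0% of all genes), 8 of them lower (15.7%) and 1 higher (15.2%), with a median change of -2.22 against 0 for all genes. Fos was 530 and 399 CPM before and 18.4 and 16.2 CPM after culture (-4.81 ± 0.16, adjusted p = 3.7e-06). Egr1 was 154 and 117 against 13.03 and 13.8 (-3.40 ± 0.15, adjusted p = 1.1e-05), and Egr2 was 38.3 and 32.5 against 4.57 and 4.92 CPM (-2.96 ± 0.15, adjusted p = 1.5e-05). In all 3 genes the groups were apart.

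Egr3 was 46.8 and 40.6 CPM before and 8.35 and 5.58 after (-2.72 ± 0.18, adjusted p = 4.2e-05), and Fosb was 126 and 62.1 against 26.2 and 26.5 CPM (-1.89 ± 0.29, adjusted p = 0.0022). Arc was 30.7 and 14.2 against 4.57 and 3.50 CPM (-2.54 ± 0.38, adjusted p = 0.0019). The nuclear receptors split: Nr4a1 was 280 and 249 against 142 and 168 CPM and fell (-0.84 ± 0.09, adjusted p = 0.00048), while Nr4a3 was 31.9 and 25.3 against 44.6 and 42.8 CPM and rose (0.55 ± 0.13, adjusted p = 0.015). The Nr4a3 call was lost without replicate 2 before culture (0.39, adjusted p = 0.073). Nr4a2 was 11.7 and 4.50 against 18.9 and 15.9 CPM, apart but not called (1.05 ± 0.36, adjusted p = 0.059). Ier2, at 193 and 165 against 151 and 146 CPM, fell by 0.33 (-0.33 ± 0.08, adjusted p = 0.017), a call lost without replicate 1 before culture or replicate 2 after it (adjusted p = 0.085 and 0.056).

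Of the other immediate early genes 17 were tested in Treg cells, of which 10 fell and 6 rose (median -0.70), with the RNA-decay factor Zfp36 at -2.46 and Klf4 at -2.68, and Fosl2 and Atf3 at 4.05 and 3.29. Of the 14 upstream factors 2 rose and 3 fell, with the CREB family gene Crem at 3.37. The culture differs from the fresh cells both by time outside the animal and by IL-2, and these cannot be told apart in this set. Summed myeloid markers were 227 to 523 CPM before and 179 to 427 CPM after, 2 of 6 tested ones lower, and B cell markers 126 to 278 and 123 to 311 CPM. Their part was not tested.

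With reduced STAT5 gene dose most of the 10 genes rose, Arc by the most. In set 7, 8 of 10 genes were called in Stat5a-/- Stat5b+/- cells (57.6% of all genes) and 8 in Stat5a+/- Stat5b-/- cells (57.0%), all higher, a direction of 29.2% and 28.7% of all genes. The median change was 0.74 and 0.83 against 0.01 for all genes. Both comparisons share the 2 wild-type libraries. Arc was 8.29 and 6.05 CPM in wild type, 120 and 109 in Stat5a-/- Stat5b+/- and 73.1 and 81.0 CPM in Stat5a+/- Stat5b-/- cells. The 3 genotypes were apart, with rises of 3.93 ± 0.13 (adjusted p = 5.8e-09) and 3.36 ± 0.13 (adjusted p = 1.7e-08). Arc was the 1 gene called between the mutants (2.52% of all genes), at -0.58 ± 0.09 for Stat5b-null against Stat5a-null (adjusted p = 0.0082), a call lost without Stat5a-null replicate 1 (-0.50, adjusted p = 0.12).

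Nr4a2 was 33.9 and 39.8 CPM in wild type, 139 and 150 in Stat5a-null and 136 and 162 in Stat5b-null cells, rises of 1.90 ± 0.10 (adjusted p = 1.4e-07) and 1.95 ± 0.10 (adjusted p = 1.2e-07). Egr2 was 35.4 and 35.7, then 87.3 and 95.1, then 64.9 and 79.5 CPM, and Egr3 was 116 and 111, then 252 and 245, then 214 and 240 CPM. Both EGR genes were apart from wild type in both mutants, by 1.29 ± 0.11 (adjusted p = 2.3e-06) and 0.95 ± 0.10 (adjusted p = 2.0e-05) for Egr2, and by 1.06 ± 0.07 (adjusted p = 6.2e-07) and 0.93 ± 0.07 (adjusted p = 1.5e-06) for Egr3. Nr4a1 was 434 and 377 in wild type, 608 and 670 in Stat5a-null and 659 and 763 CPM in Stat5b-null cells (0.59 ± 0.09, adjusted p = 0.00022, and 0.74 ± 0.09, adjusted p = 4.1e-05). Ier2 was 135 and 145, then 252 and 224, then 226 and 228 CPM (0.71 ± 0.07, adjusted p = 1.3e-05, and 0.63 ± 0.07, adjusted p = 2.8e-05).

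**Figure D5:**
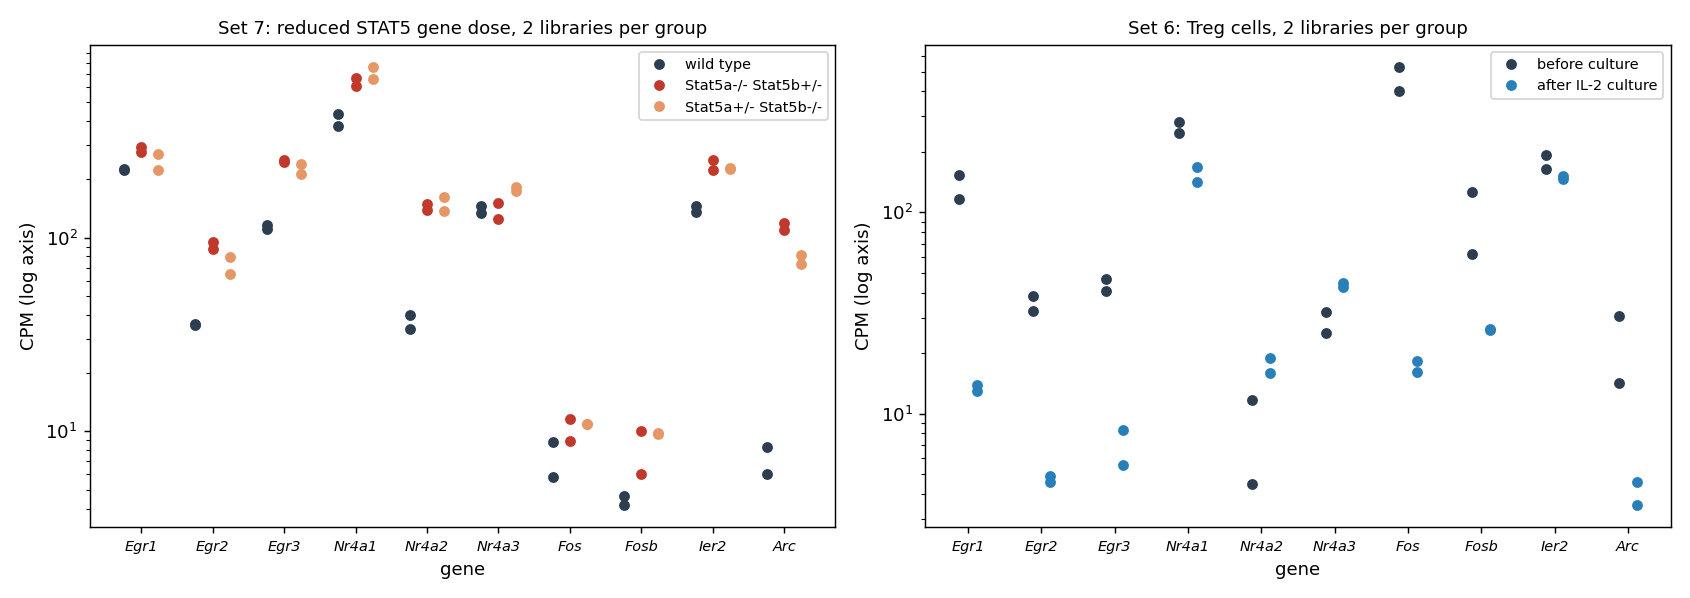
CPM (log axis) of the 10 genes, with 2 libraries per group as points, in wild type and both STAT5 gene dose mutants (left) and in Treg cells before and after IL-2 culture (right). Arc goes from 8.29 and 6.05 CPM in wild type to 73.1 CPM or more in the mutants, and Fos from 530 and 399 to 18.4 and 16.2 CPM in Treg cells.

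The smaller changes of set 7 were less steady. Egr1 was 226 and 223 CPM in wild type and 277 and 293 in Stat5a-null cells (0.28 ± 0.08, adjusted p = 0.015), and 223 and 271 in Stat5b-null cells, where it was not called (0.07 ± 0.08, adjusted p = 0.49). Fosb was 4.65 and 4.15, then 6.05 and 10.1, then 9.77 and 9.69 CPM (0.76 ± 0.27, adjusted p = 0.030, and 1.08 ± 0.25, adjusted p = 0.0040). Nr4a3 was 146 and 134, then 152 and 125, then 175 and 182 CPM, and was called in Stat5b-null cells alone (0.29 ± 0.09, adjusted p = 0.019). Its difference between the mutants was 0.36 ± 0.09 and not called (adjusted p = 0.069). Fos, at 5.83 to 11.5 CPM in the set, was called in neither. In Stat5a-null cells Egr1 lost its call without mutant replicate 2 or wild-type replicate 2 (adjusted p = 0.086 and 0.060), as did Fosb, also without wild-type replicate 1 (adjusted p = 0.071 to 0.20) and with DESeq2 (adjusted p = 0.056). Nr4a3 in Stat5b-null cells lost it without mutant replicate 2 or wild-type replicate 2 (adjusted p = 0.069 and 0.12).

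Of the 19 other immediate early genes 9 rose and 8 fell in Stat5a-null cells and 6 rose and 8 fell in Stat5b-null cells, with the EGR family gene Egr4 at 2.47 and 2.30 and Ier3 at -2.01 and -2.51. Of the 13 receptor-induced genes 6 rose in each mutant, led by Il2 at 7.09 and 6.66, and 5 and 6 fell. Of 16 tested corepressors and targets 5 rose and 7 fell in each, with Crtam at 3.40 and Socs3 at -3.60 in Stat5a-null cells. Summed myeloid markers were 58.3 to 60.7 CPM in wild type, 13.7 to 14.0 in Stat5a-null and 52.5 to 59.5 in Stat5b-null cells, with Itgax and Lyz2 at 0 in wild type and Stat5a-null cells. Rn45s was higher in both mutants, at 2095 to 2281, 4363 to 6793 and 3236 to 4414 CPM. Their part in these results was not tested.

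Across the 43 groups, with levels centred within each set, the closest other genes differed from member to member (Pearson's r of group means in log2 CPM, over 11186 genes, as a description in which groups of 1 set share cells and preparation). Nr4a3 was nearest to Pdzk1ip1 (r = 0.867), Nr4a2 to Serpine2 (0.861) and Tnfsf4 (0.854), Arc to Btbd6 (0.874), Egr3 to Tox (0.833) and Nfatc1 (0.826), Fos to Dnajb1 (0.836) and Nr4a1 to Eno3 (0.829). Egr1, Ier2 and Egr2 were nearest to Osgin1 (0.786), Igfbp7 (0.764) and Snx30 (0.745). Fosb had no close partner, with Usp20 at 0.586. Among the 10 genes the closest pairs were Egr1 with Egr3 (0.748) and Nr4a1 with Arc (0.711), and the least alike were Nr4a2 and Fos (-0.411).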

How the data were processed

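RNA-seq counts of 88 libraries in 43 groups were used; 10 further samples of the series (chromatin immunoprecipitation, histone marks and input) were not used here. The deposited values are read counts per gene, which, per the submitters' processing notes, the authors made on mm9 with TopHat2, Bowtie2 and HTSeq (versions not given). Whether counting used strand is not given in the sources used here, so a gene and one that overlaps it or lies antisense to it cannot be told apart. Of 47 replicate pairs, 0 were identical. In 2 tables, 27 date-like rows that name no gene were left out (at most 0.266% of a library's counts), and 250 symbols in sets 1 and 3 were given back a hyphen.

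CPM are counts over the library total. Tests used edgeR 4.0.16 in R 4.3.3 (filterByExpr by group, TMM, quasi-likelihood fit, 1 mean per group and set, Benjamini-Hochberg over all genes tested, threshold 0.05). The 5 models are set 1, sets 2, 3 and 5 together (52 libraries in 26 groups, comparisons averaged over sets), set 4, set 6 and set 7, with 12262, 16359, 15299, 11942 and 12392 genes tested. Residual degrees of freedom are 4, 26, 10, 2 and 3, so with 2 libraries per group the spread is borrowed from the other groups and genes. On simulated data, 2-fold changes in 200 genes were recovered at 89% in set 1, 67.5% for the loss of STAT5 under control vectors, 16% for its loss in Th0 cells, 70.5% for the average of 5 cultures, 80% for Treg cells and 78% for Stat5a-null cells, with 4.3%, 1.5%, 0%, 7.2%, 10.1% and 8.2% of calls false.

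The 10 genes and all gene lists were chosen with earlier results of these data known. Named are the 10 genes, the most changed called genes of each list (up to 4), the 2 STAT5 genes, up to 3 genes most alike each member (Pearson's r), and cell type markers; Xist, Ddx3y and Rn45s were added as checks of the libraries. Alternatives were DESeq2 1.42.0, RLE scaling, no low-count filter, a replicate block, a fit of only the libraries compared, leaving out each library in turn (in the joint model with the dispersion trend kept), and leaving out 5 doubted libraries.

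Whether same-numbered replicates deviate together was checked by correlating deviations from group means. In set 4 the lowest of 90 correlations was 0.104 (median 0.486) and in set 2 the lowest of 30 was 0.114 (median 0.191), so there the numbers pair the libraries. In set 3 the lowest was -0.049 and in set 5 -0.581, so the fit of the joint model has no block, and blocked values are given beside it where they change a call.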

Additional observations from a re-analysis of the deposited data

Results flagged for a closer look

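In the vector cultures, the effect of the STAT5 vector on Nr4a3 differed between STAT5-deficient and wild-type cells by 1.50 on the log2 scale, and that on Ier2 by 0.51, by a test of the difference itself (edgeR's quasi-likelihood test). For Nr4a3 the difference stood mainly in sets 2 and 3, since in set 5 it rose by 3.15 in deficient and 2.97 in wild-type cells. The effect of the AKT vector on Arc differed between the genotypes by 1.12, by the same kind of test. These 3 results were picked out because 2 genotypes responded unequally to 1 vector.

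In the polarising cultures, the effect of STAT5 loss differed among the 5 conditions for 6 genes, by a test over all conditions at once. The adjusted p was 0.0066 for Egr2, 0.0010 for Egr3, 0.049 for Nr4a1, 0.015 for Nr4a2, 0.0034 for Nr4a3 and 0.027 for Arc. The calls of Nr4a1, Nr4a2 and Arc were lost when certain single libraries were left out, as given above. No group held 4 or more libraries, so single libraries could not be checked for standing apart by the gap to their neighbours.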

How the results depend on the processing

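No called result changed direction under the alternatives run, and the counts below are of the 10 genes called. With the replicate block the count went from 4 to 7 for STAT5 loss with control vectors, from 3 to 6 for the STAT5 vector in deficient cells, from 2 to 4 for that vector in wild type, from 2 to 6 for its difference between genotypes, from 5 to 9 for deficient cells given STAT5 against wild type, from 1 to 2 for AKT in wild type, from 0 to 1 for STAT5 loss in Th17 cells and from 1 to 3 for Stat5b-null against Stat5a-null cells. By the criterion of a correlation over 0.1 in every one of 3 or more pairs, same-numbered libraries were paired in sets 2 and 4 and not in sets 1, 3, 5 and 7, and set 6 has too few pairs for it (0.567). In set 5 Fos, Fosb and the EGR genes nevertheless split by replicate number, and in set 3 Fos, Fosb, Ier2 and Egr1 did. The report therefore names the genes that the block added in the vector comparisons. That split was seen in the same values, so the blocked calls of these genes are a description beside the main fit. The block changed no count by more than 1.5 times elsewhere. The share of all genes called with the block is not given here, so the blocked counts are not set against a background. DESeq2 gave 5 for the STAT5 vector in deficient cells, 1 for Th17 and 2 between the mutants, and no low-count filter gave 1 for Th17 and 3 between the mutants. DESeq2 put the median log2 change of its genes at -0.185 for the STAT5 vector in deficient cells, against -0.07 in the edgeR fit, with Nr4a3 higher and Egr3 and Arc lower in both. A fit of only the compared libraries gave 6 for the STAT5 vector in deficient cells. With no filter the Ier2 change on STAT5 loss with control vectors was -0.31. Leaving out 1 library at a time gave counts of 4 to 6 for STAT5 loss with control vectors, 3 to 4 and 2 to 3 for the STAT5 vector in deficient and wild-type cells, 2 to 3 between genotypes, 4 to 7 for deficient cells given STAT5 against wild type, 0 to 1 for AKT in wild type and 0 to 1 for AKT added to STAT5 in deficient cells, where Ier2 was called (-0.82, adjusted p = 0.012) without set 5 STAT5 and AKT replicate 2. In set 4 the ranges were 0 to 1 for Th0, 2 to 4 for Th2, 3 to 7 for the average, 3 to 7 between cultures, 4 to 7 for Th1 against Th0 and 1 to 2 for iTreg against Th0. Between the mutants the range was 1 to 2. A lone library left in a group was assumed to vary like the other groups. Leaving out the 5 doubted libraries, chosen after seeing the data, gave 4, 3, 3 and 2 for STAT5 loss, the STAT5 vector in deficient and wild-type cells and its difference between genotypes, 2 for AKT in deficient cells and 1 for its difference between genotypes. Apart from fewer libraries or genes entering a fit, the cause of these shifts was not tested. MYC, CD25 and MYC added to STAT5 called 0 genes under every alternative run. Depth limits the lowest values: Egr3 had 0 counts in 1 library, Fosb and Fos as few as 1 and 2, and intervals of such counts are wide.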
